A study of Mus musculus with 32 samples.

Results

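Of the 5163 cDNA probes on the array, 3 have titles that name a glutamate receptor, a discs-large scaffold or a synapsin: glutamate receptor, ionotropic, NMDA1 (zeta 1), which is Grin1, discs, large homolog 4, which is Dlg4, and synapsin I, which is Syn1. They were found by searching the probe titles for the words glutamate receptor, discs, large, or synapsin, leaving out expressed sequence tags, a rule that uses titles and no measured value. Each gene has 1 probe, and all 3 passed the filter on dim probes. The probes were measured in prefrontal cortex of adult mice from lines bred for severe (WSP, withdrawal seizure-prone) or mild (WSR, withdrawal seizure-resistant) seizures on ethanol withdrawal, 2 independent lines in each direction, all derived from the HS/Ibg heterogeneous stock. EtOH mice breathed ethanol vapor for 72 h and had an ethanol injection on the first day, of 1.5 g/kg in WSP-1, WSR-1 and WSR-2 and of a higher dose in WSP-2, so the dose also differs between the lines. Air mice breathed air. Every mouse of both treatments received pyrazole at 68.1 mg/kg, an inhibitor of alcohol dehydrogenase, so no group is free of it, and the cortex was dissected as exposure ended, at 0 h of withdrawal. The 8 groups of sex, line and treatment held 4 arrays each, and each array carries radiolabelled cDNA from the RNA of 2 pooled mice. The submitters marked 1 female WSR EtOH array (2-1) as excluded, which leaves 31 arrays and 3 in that group. An array is named by its selection replicate and its pool, so that 1-2 is pool 2 of selection replicate 1.

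Fast excitatory signalling in the cortex runs on glutamate. Synapsin I is a phosphoprotein that tethers synaptic vesicles in the presynaptic terminal, Grin1 encodes the subunit that every NMDA-type glutamate receptor contains, and Dlg4 encodes the main scaffold of the postsynaptic density, which holds NMDA receptors and their signalling enzymes in place. NMDA receptors are inhibited by ethanol, and their upregulation during long exposure is a textbook account of the hyperexcitability of withdrawal.

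Each array has 1 background reading for all its spots, and these readings followed the groups. They ran from 430 to 769 on the 7 female WSR arrays, from 88.4 to 283 on the 4 female WSP arrays of pool 1, from 10.3 to 66.8 on the 4 of pool 2, and from 8.25 to 41.1 on the 16 male arrays. A spot is called above background where its signal exceeds this reading, which was so for 17.3% to 36.2% of probes on female WSR arrays and 40.9% to 71.7% on male arrays. The female WSR readings overlap with those of no other group, so for a comparison of female WSR with any other group the array background and the group cannot be told apart. The Y-linked Eif2s3y was above background on 6 of 15 female and 14 of 16 male arrays and differed by -0.31 ± 0.26 (SE, log2, females minus males in Air, limma adjusted p = 0.451), so it did not separate the labelled sexes. The tissue markers on the array are few: the neuronal filament alpha internexin was above background on 25 of 31 arrays, and glutamine synthetase of astrocytes on all 31. In RNA from dissected tissue, fewer cells of a type and less RNA per cell cannot be told apart.

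The signals of the 3 probes were low. Dlg4 was above background on 23 of 31 arrays, on 16 of 16 male arrays, on 7 of 8 female WSP arrays and on 0 of 7 female WSR arrays. Grin1 was above background on 18 of 31 arrays (11 of 16 male, 4 of 8 female WSP, 3 of 7 female WSR). Syn1 was above background on 12 of 31 arrays (10 of 16 male, 2 of 8 female WSP, 0 of 7 female WSR). At the stricter limit of 2 times the background, 2 arrays remained for Dlg4, 1 for Grin1 and 0 for Syn1. A probe below the reading is not well above background there, and is not shown to be unexpressed.

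**Figure D1:**
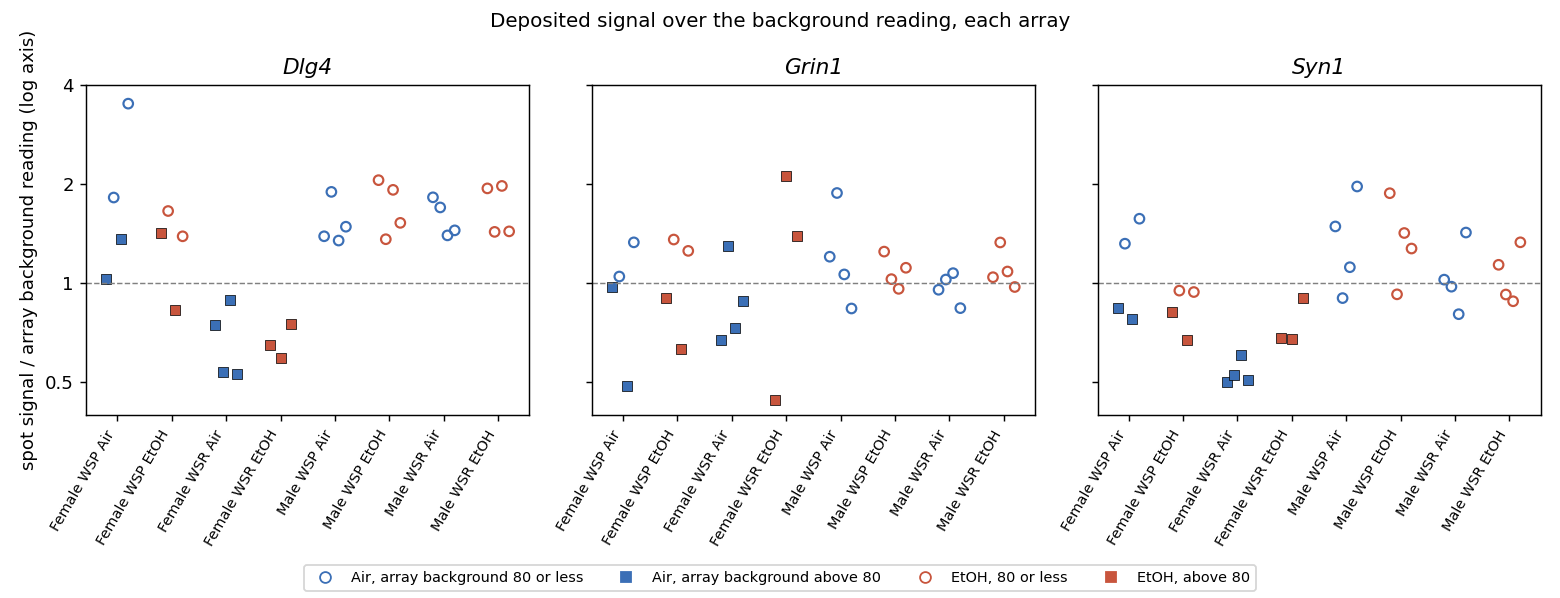
Deposited spot signal divided by the background reading of its array (log axis) for Dlg4, Grin1 and Syn1, 1 point per array, by group. The dashed line marks a ratio of 1. Filled squares are arrays with a background reading above 80. Dlg4 lies above the line on all 16 male arrays and below it on all 7 female WSR arrays, where it ran from 0.53 to 0.89.

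Dlg4 was lower on female WSR arrays than on all others. Its normalised log2 signal ran from 3.12 to 4.91 on the 7 female WSR arrays and from 5.14 to 6.09 on the other 24, so these ranges did not overlap. That was so, in this direction, for 7 of the 3872 probes tested (0.181%). This split was described after its values were seen and carries no test. Between WSP and WSR in female Air, 1 of the 3 genes passed the threshold, Dlg4, which was higher in WSP.

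The Dlg4 signal in female WSP Air measured 5.33, 5.72, 5.51 and 6.01 (log2, arrays 1-1, 1-2, 2-1 and 2-2). In female WSR Air it measured 4.50, 3.12, 4.85 and 3.68. All 4 WSP arrays lay above all 4 WSR arrays, which spread more widely (SD 0.29 against 0.79). The difference was 1.60 ± 0.29 (SE, log2, WSP minus WSR, n = 4 arrays each, limma with Benjamini-Hochberg adjustment over 3872 probes, adjusted p = 0.00308). Because Dlg4 was above background on no female WSR Air array, the level there is only a bound. Against the lowest signal above background on those arrays, Dlg4 was at least 1.31-fold higher in WSP (measured log2 means 5.64 and 4.04). In the same comparison 3.31% of all probes passed the threshold, 94 higher and 34 lower in WSP.

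On the 4 female WSP arrays with a background reading above 80 Dlg4 measured 5.32 to 5.68, but these readings (88.4 to 283) also lie below every female WSR reading, so the comparison is not at like background. With the arrays above 80 alone (2 WSP, 4 WSR in Air) the difference was 1.38 ± 0.55, and limma's adjusted p was 0.9996. Relative to the median of the spots printed next to it, Dlg4 stood higher on all 31 arrays, by 0.46 to 1.18 (log2) on male arrays but by only 0.03 to 0.37 on female WSR arrays and 0.05 to 0.23 on the female WSP arrays with a reading above 80. That scale takes deposited signals without background correction, unlike the 1.60 above, so the sizes are not like for like. On that scale the female Air line difference was 0.56 ± 0.20 (SE, log2) and did not pass in limma (adjusted p = 0.152). A marker of another cell type moved in the same comparison: proteolipid protein of myelin, made by oligodendrocytes, was lower in WSP, by -1.87 ± 0.43 (limma adjusted p = 0.0133, above background on 22 of 31 arrays). The 5 markers on the array for neurons, astrocytes, oligodendrocytes, endothelium and choroid plexus stand for 1 gene each, and proteolipid protein was the only one called. Its part in the Dlg4 result was not tested.

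In males the Dlg4 values of the lines lay close together. In male WSP Air it measured 5.14, 5.61, 5.69 and 5.52, and in male WSR Air 5.78, 5.76, 5.79 and 5.55. The WSP and WSR ranges overlapped, and the difference was -0.23 ± 0.29 (SE, log2, limma adjusted p = 0.99995). The difference between females and males in the line effect was 1.84 ± 0.41 (SE, log2), which missed the threshold in limma (adjusted p = 0.118). No probe of 3872 passed in that comparison (0%, 377 at an unadjusted p under 0.05).

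After ethanol the female lines lay in the same order in Dlg4, without passing the test. Female WSP EtOH measured 5.68, 5.55, 5.32 and 5.17 and female WSR EtOH 4.91, 4.37 and 3.99 (arrays 1-1, 1-2 and 2-2). These groups did not overlap either, as was the case for 8.06% of all probes. The difference of 1.01 ± 0.31 (SE, log2, n = 4 and 3) missed the threshold in limma (adjusted p = 0.151), where 0.0517% of probes passed. Dlg4 was above background on 0 of these 3 female WSR arrays, so the level there is only a bound. Against the lowest signal above background on those arrays no fold could be given. The excluded female WSR EtOH array read Dlg4 at 1.10 times its background of 309.9, above every female WSR array used, and with it the difference was 0.78 (limma adjusted p = 0.280).

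**Figure D2:**
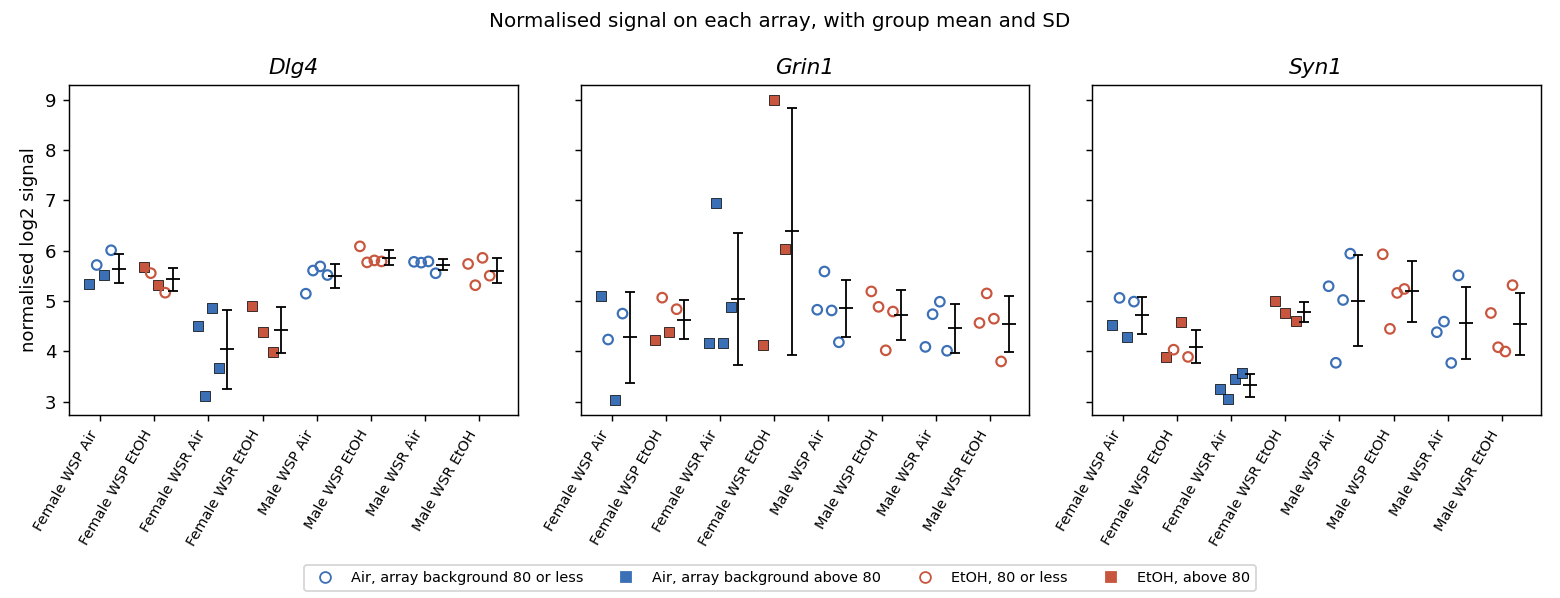
Normalised log2 signal of Dlg4, Grin1 and Syn1 on each of the 31 arrays by group, with the group mean and SD in black. Filled squares are arrays with a background reading above 80. Dlg4 sits between 5.14 and 6.09 in 6 groups and between 3.12 and 4.91 in female WSR, and Grin1 reaches 8.99 on 1 female WSR EtOH array.

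Females and males in Air differed in Dlg4 as well, by -0.76 ± 0.21 (SE, log2, females minus males, limma adjusted p = 0.0129), with 6 of 8 female arrays below the male mean. In this comparison 15% of all probes passed, 133 higher and 449 lower in females, and Dlg4 was 1 of the 582. The female mean joins unlike lines. Female WSP Air averaged 5.64 ± 0.29 (SD, n = 4) against 5.49 ± 0.24 in male WSP Air, while female WSR Air averaged 4.04 ± 0.79 against 5.72 ± 0.11 in male WSR Air. On the 2 female WSP Air arrays of low background, Dlg4 measured 5.72 and 6.01, and male WSP Air ran from 5.14 to 5.69. After ethanol the order was the reverse. The female WSP EtOH arrays of low background measured 5.55 and 5.17, and male WSP EtOH ran from 5.77 to 6.09. Neither split carries a test. With the background class of the array as a term the sex difference in Air was -0.65 and limma's adjusted p was 0.545.

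Dlg4 did not change past the threshold with ethanol in any sex and line. In male WSP EtOH it measured 6.09, 5.77, 5.81 and 5.79, above all 4 male WSP Air arrays given above. Such a lack of overlap was found for 2.09% of probes in male WSP. The difference there was 0.37 ± 0.29 (SE, log2, EtOH minus Air, limma adjusted p = 0.9996). The model uses 1 spread for all 8 groups. Male WSR EtOH measured 5.74, 5.31, 5.86 and 5.50, within reach of its Air arrays, and the difference was -0.12 ± 0.29 (limma adjusted p = 0.9999). In female WSR the difference was 0.39 ± 0.31 (limma adjusted p = 0.575), and it was 0.08 without Air array 1-2 and 0.66 without Air array 2-1.

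Ordered by group mean, Dlg4 ran from male WSP EtOH (5.86 ± 0.15, SD) through male WSR Air, female WSP Air, male WSR EtOH (5.60 ± 0.24), male WSP Air and female WSP EtOH (5.43 ± 0.23) to female WSR EtOH (4.42 ± 0.46) and female WSR Air. The only step between neighbours in this order that was wider than both groups' SD was the one from female WSP EtOH to female WSR EtOH.

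Grin1, the NMDA receptor subunit, passed the threshold in none of the 13 comparisons. Its highest levels came from single female WSR arrays. Female WSR Air measured 4.17, 6.95, 4.16 and 4.89, and female WSR EtOH 4.13, 8.99 and 6.04 (arrays 1-1, 1-2 and 2-2). Arrays 1-2 of both treatments and 2-2 of EtOH were high and the other 4 lay between 4.13 and 4.89, so the groups overlapped and their SDs were 1.32 and 2.45. Female WSP measured 5.10, 4.23, 3.03 and 4.75 in Air and 4.22, 5.07, 4.39 and 4.84 after ethanol. These groups overlapped with each other and with female WSR.

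The male groups overlapped in Grin1, with SDs of 0.48 to 0.58. Male WSP measured 4.83, 5.59, 4.81 and 4.18 in Air and 5.19, 4.88, 4.02 and 4.79 after ethanol. Male WSR measured 4.09, 4.74, 4.99 and 4.01 in Air and 4.56, 5.15, 4.65 and 3.80 after ethanol. Male arrays ran from 3.80 to 5.59 in all. Over the 8 groups the order ran from female WSR EtOH (6.39) and female WSR Air (5.04) through the male and female WSP EtOH groups to female WSP Air (4.28 ± 0.90, SD), and no step between neighbours exceeded the larger SD of the pair.

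In female WSR the Grin1 difference between EtOH and Air was 1.34 ± 0.72 (SE, log2, limma adjusted p = 0.396). It was 0.04 without EtOH array 1-2, and 2.47 without EtOH array 1-1, when it passed (limma adjusted p = 0.0491). Of all 3872 probes, 122 passed without EtOH array 1-1, against 9 with no array left out. Between WSP and WSR after ethanol in females the Grin1 difference was -1.76 ± 0.72 (limma adjusted p = 0.263), and it was -0.45 without EtOH array 1-2 of WSR and -2.89 without 1-1, when it passed. Without 1-1, 163 of all probes passed, against 2 with no array left out. In female Air the Grin1 difference was -0.76 ± 0.67 (limma adjusted p = 0.598), and it was -0.13 without WSR array 1-2 and -1.06 without 2-1. The EtOH response in females minus that in males was 0.87 ± 0.68 (limma adjusted p = 0.977), and it was 0.22 without female WSR EtOH 1-2 and 1.43 without 1-1. No probe passed in that comparison (0%, 154 at an unadjusted p under 0.05).

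The spots next to Grin1 were bright on the same arrays. On female WSR EtOH 1-2 Grin1 read 2.12 times the background and the median of its adjacent spots 1.87 times, and on EtOH 1-1 these were 0.44 and 0.41. Over the 31 arrays Grin1 stayed within -0.18 to 0.29 (log2) of that median. Across the 11 arrays of high background (above 80) the Pearson correlation of the Grin1 log2 ratio to background with that of its adjacent spots was 0.99, and across the 20 arrays of low background it was 0.86. The other 2 genes also followed their adjacent spots on arrays of high background. For Dlg4 the same correlations were 0.98 at high and 0.52 at low background, and for Syn1 0.96 and 0.55. The points share the array and its background reading. On the scale of adjacent spots the female WSR difference between EtOH and Air was 0.0013, and the female EtOH line difference turned to 0.05 ± 0.10 (SE, log2).

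**Figure D3:**
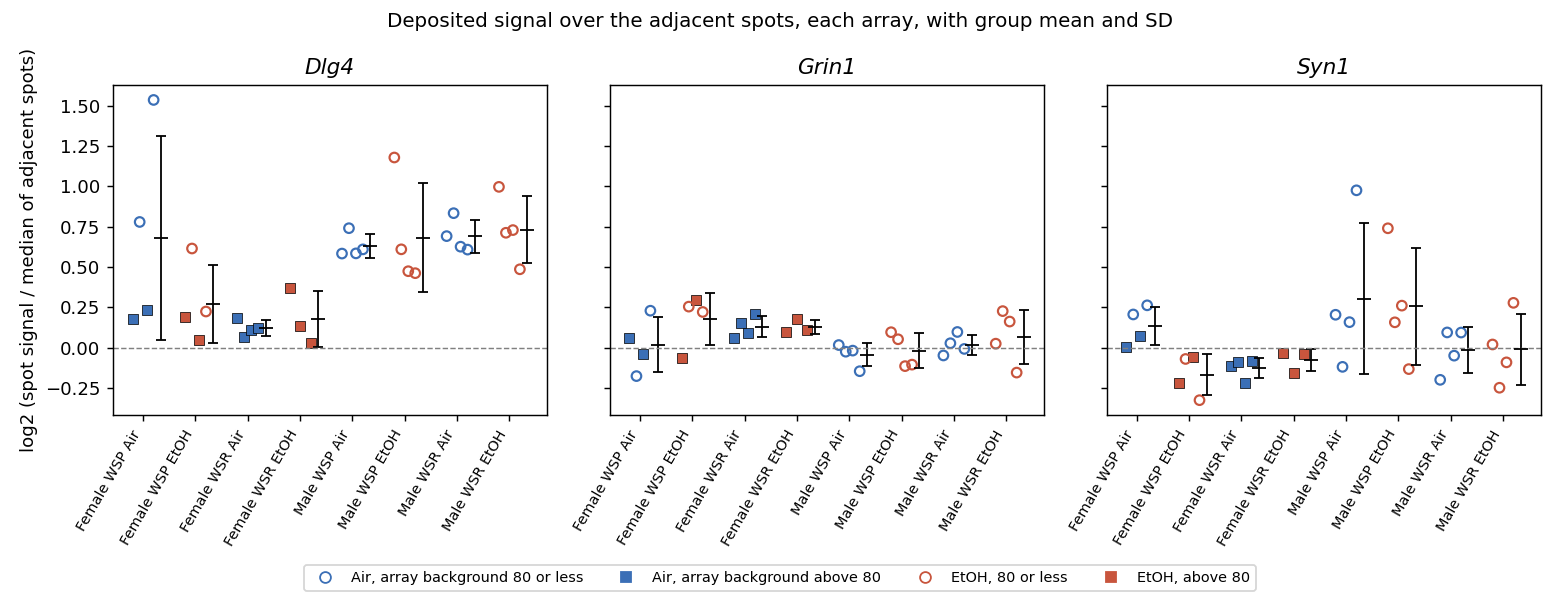
Log2 of the deposited signal over the median of the up to 8 adjacent spots, for each gene and array by group, with the group mean and SD in black. The dashed line marks equality, and filled squares are arrays with a background reading above 80. Grin1 stays within -0.18 to 0.29 everywhere, whereas Dlg4 exceeds 0.46 on every male array and stays at or below 0.37 on arrays of high background.

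Syn1, the synaptic vesicle protein, was lowest in female WSR Air, at 3.25, 3.05, 3.44 and 3.57 (arrays 1-1 to 2-2 as before). Female WSP Air measured 4.53, 5.06, 4.28 and 4.99. All WSP arrays lay above all WSR arrays, and of the 3 genes Syn1 and Dlg4 showed such a separation, against 5.22% of all probes. The difference was 1.39 ± 0.40 (SE, log2, limma adjusted p = 0.0505), just short of the threshold. Syn1 was above background on 2 of 4 female WSP Air and 0 of 4 female WSR Air arrays, so no fold is given. Relative to its adjacent spots the line difference was 0.26 ± 0.17 (log2).

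After ethanol the Syn1 values of the female lines lay in the opposite order, without passing the test. Female WSR EtOH measured 5.0, 4.76 and 4.61, above all 4 Air arrays of that line, a separation found for 7.23% of probes. The difference was 1.46 ± 0.43 (SE, log2, EtOH minus Air, limma adjusted p = 0.106), in a comparison where 0.232% of probes passed. Female WSP EtOH measured 3.88, 4.03, 4.58 and 3.89, below every female WSR EtOH array. The female lines after ethanol did not overlap for 8.06% of all probes. Female WSP EtOH minus female WSP Air came to -0.62 ± 0.40 (limma adjusted p = 0.99996). Female WSP minus female WSR after ethanol came to -0.69 ± 0.43 (limma adjusted p = 0.494). None of these passed, Syn1 was above background on 0 of these 7 EtOH arrays, and relative to adjacent spots the female WSR difference was 0.05 ± 0.18 (log2).

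The Syn1 response to ethanol in WSP minus that in WSR was -0.93 ± 0.41 (SE, log2, unadjusted p = 0.0294), and limma's adjusted p was 0.946. No probe passed in that comparison (0%, 201 at an unadjusted p under 0.05). Averaged over the 4 sex and line groups, the Syn1 difference between EtOH and Air was 0.25 ± 0.20 (limma adjusted p = 0.872), and it was -0.07 ± 0.09 relative to adjacent spots.

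Syn1 in males varied from array to array within groups. Male WSP measured 5.29, 3.77, 5.02 and 5.94 in Air and 5.93, 4.45, 5.16 and 5.24 after ethanol. Male WSR measured 4.38, 4.59, 3.77 and 5.51 in Air and 4.76, 4.08, 4.00 and 5.31 after ethanol. All 4 groups overlapped, with SDs of 0.61 to 0.91. WSP minus WSR came to 0.44 ± 0.40 in male Air (limma adjusted p = 0.99995) and 0.66 ± 0.40 in male EtOH (limma adjusted p = 0.9999). Females minus males in Air came to -0.76 ± 0.28 (SE, log2, limma adjusted p = 0.0662), with 6 of 8 female arrays below the male mean. In the order of group means, from male WSP EtOH (5.19) to female WSP EtOH (4.10) and female WSR Air (3.33), only the last step was wider than both SDs.

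**Figure D4:**
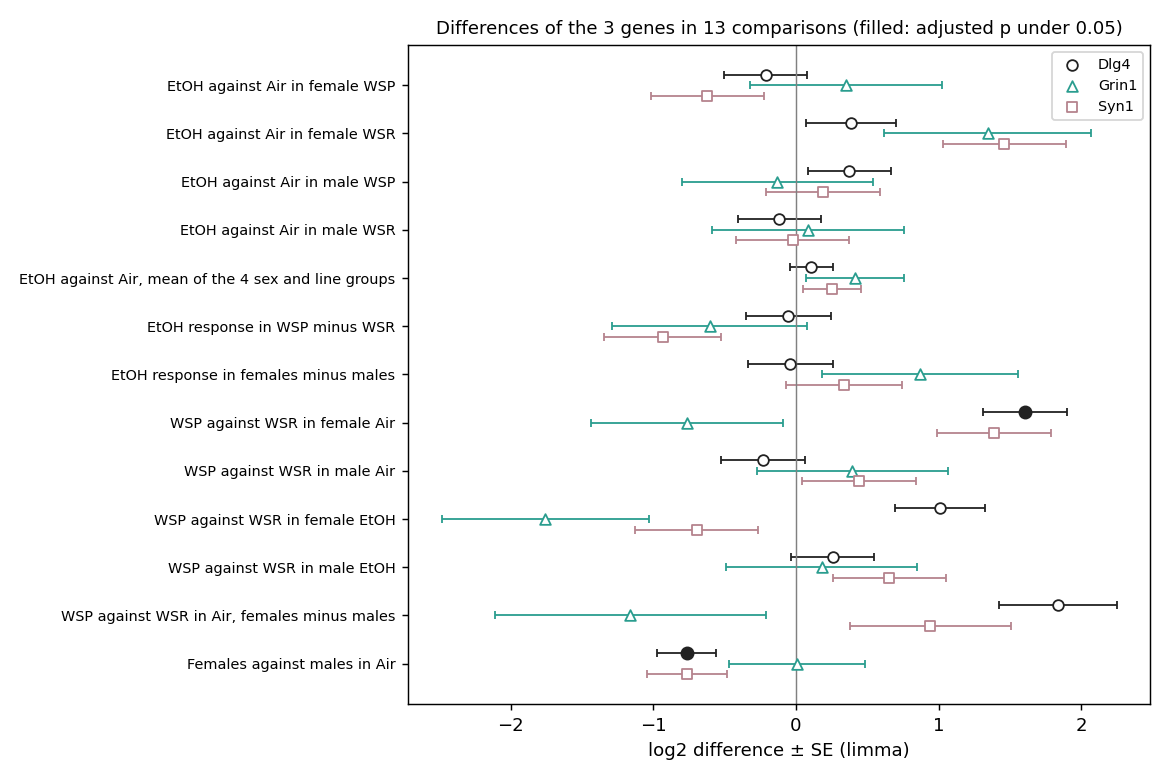
Log2 differences ± SE from limma for the 3 genes in the 13 comparisons, each named as the first group minus the second. Filled symbols have an adjusted p under 0.05: Dlg4 between the female lines in Air (1.60) and Dlg4 between females and males in Air (-0.76).

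The 3 genes did not move as a group. Over 13 comparisons, 2 of 39 differences passed the threshold, both of Dlg4. Of all probes, 3.31% passed in the first of these comparisons (female lines in Air) and 15% in the other (females against males in Air). The 18 differences not given singly ran from -1.16 to 0.94, with a lowest adjusted p of 0.597 in limma. In female Air the Grin1 difference had the opposite sign to those of Dlg4 and Syn1. The median of the 3 genes there was 1.39, and that of all probes 0.10. In female WSR the median for EtOH minus Air was 0.05 over all probes, and that of the 3 genes is the Grin1 value of 1.34, which rests on array 1-2. As a description over 31 arrays, deviations from the group means correlated at -0.43 between Grin1 and Dlg4, at -0.28 between Grin1 and Syn1, and at 0.07 between Dlg4 and Syn1.

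In the comparisons of EtOH with Air other than female WSR, no probe at all passed in limma (0%). Probes at an unadjusted p under 0.05 numbered 142 in female WSP, 35 in male WSP, 28 in male WSR and 202 for the mean of the 4 groups. The same was so for the line comparisons in males (0%), with 83 probes in Air and 168 after ethanol at an unadjusted p under 0.05.

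Other genes of the glutamatergic synapse were sought by title. Some of the words searched for, such as syntaxin, name a whole protein family, so a match does not place a gene at this synapse. The search found 14 probes, of which 11 were bright enough to test. They include syntaxin 7 and vesicle-associated membrane protein 2 of the vesicle fusion machinery, the vesicle protein synaptotagmin 4, the postsynaptic scaffold homer 3, cadherin 2 and ephrin B1 of cell contacts, cortactin of the actin cytoskeleton in dendritic spines, calcium/calmodulin-dependent protein kinase IV, the gamma catalytic subunit of the phosphatase calcineurin, and glutamine synthetase, the astrocyte enzyme that converts glutamate to glutamine. In each of the 13 comparisons 0 of 11 passed in either direction in limma. The share of all probes that passed was 15% between females and males in Air and 3.31% between the female lines in Air. The share was 0.232% for EtOH in female WSR and 0.0517% between the female lines after ethanol. In the remaining comparisons it was 0%. At an unadjusted p under 0.05 there were 2 of 11 in female Air between the lines, where 18% of all probes had one, and 2 of 11 between females and males, where 29.5% had one. There were 5 of 11 between the female lines after ethanol (13.1% of all probes), 4 of 11 for EtOH in female WSR (14.7%) and 1 of 11 for the EtOH response in WSP minus WSR (5.19%).

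Glutamine synthetase was above background on all 31 arrays. Between the female lines it measured 0.97 ± 0.41 (SE, log2, WSP minus WSR) in Air (limma adjusted p = 0.200) and 1.24 ± 0.44 after ethanol (limma adjusted p = 0.193). Vesicle-associated membrane protein 2 measured -0.99 ± 0.43 between the female lines in Air (limma adjusted p = 0.205), the opposite sign to Dlg4 and Syn1. The calcineurin subunit had the widest difference, -1.99 ± 0.66 between the female lines after ethanol (limma adjusted p = 0.159), with a signal above background on 14 of 31 arrays. The median of the 11 was 0.38 between the female lines in Air, where all probes had 0.10, and -0.21 between females and males, where all probes had -0.05.

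The genes whose deviations from the group means were most like those of Dlg4 over the 31 arrays, among 815 probes with a gene title, were lamin A of the nuclear envelope (Pearson 0.82), radixin, which links actin to the plasma membrane (0.81), and a homolog of vesicle transport through interaction with t-SNAREs (0.79). They were above background on 22, 22 and 23 arrays.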

How the data were processed

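Per the file headers, the authors deposited for each array a linear spot intensity (Signal) with 1 background reading, for 5355 spots, of which 192 are controls. Per the labels, the arrays carried radiolabelled cDNA. The quantification software is not given in the sources used here. The authors' deposited value table holds, as tested on its values, the log2 intensity of each array rescaled over all spots to a mean of 8 and an SD of 2 (column medians 7.35 to 11.19), for spots above background, and was used as an alternative. One array (female WSP EtOH 1-2) has a header name ending in pool 1, and its deposited sample was used.

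With limma 3.58.1 (R 4.3.3), intensities were background-corrected (normexp, offset 50 or 0.1 of the array median where that was lower), quantile normalised and log2-transformed, which spreads low signals. Probes above the 25th percentile of mean signal (3872) were fitted with 8 group means over 31 arrays (23 residual degrees of freedom), and p-values were Benjamini-Hochberg adjusted over probes within each of 13 comparisons, at 0.05. Selection replicates were collapsed, as in the series' design text. "At least N-fold" sets the mean of the brighter group against a floor on each array of the dimmer group, the lowest value of any probe above background or, if higher, the value of the probe itself. Adjacent spots are the up to 8 around a spot, at least 5 of them. Values relative to them use deposited signals without background correction. The method was tested on simulated data. Pools hold separate animals: the spread behind each p-value is that between the pools of a group, from both selection replicates, and the number of arrays limits the precision. WSP against WSR rests on 2 selected lines per direction, and pools of the same line are not independent replicates of the selection. The p-values for WSP against WSR therefore do not measure the spread between independently selected lines.

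Genes were given in full if they passed a threshold, had the smallest p of a comparison or were above background on at least 16 of 31 arrays; genes of like pattern were the 3 best correlated. The members, lists and tests were chosen with earlier results of these data known. A search for synapse titles used 44 patterns, and 2 titles that matched by chance of wording were dropped. Same-numbered samples come from the same selected line, per the labels; the difference between selection replicates in Air and in EtOH correlated at -0.07 to 0.02 over probes. Alternatives covered background correction, normalisation, filter, weights, replicate block, samples, background class and each array left out. Clone sequences were not used here.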

Additional observations from a re-analysis of the deposited data

Results flagged for a closer look

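Within groups of 4 arrays, 2 Dlg4 values stood apart from the other arrays by a gap that took up most of the group's range. In male WSP EtOH, array 1-1 measured 6.09 (log2), above the other 3 at 5.77 to 5.81, with a gap of 0.88 of the range. In male WSR Air, array 2-2 measured 5.55, below the other 3 at 5.76 to 5.79, with a gap of 0.90 of the range. Over 21 groups tested, chance flags about 1 in 20, and both groups have small ranges.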

How the results depend on the processing

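The signals lie near background, so ratios depend on background correction: without it the Dlg4 difference between the female lines in Air was 0.75 (log2). That difference passed under most alternatives in limma, but 0 of the 3 genes passed with cyclic loess (Dlg4 1.10, adjusted p = 0.0534), with only the arrays compared (1.60, adjusted p = 0.333) and relative to adjacent spots, and 0 of the 2 tested (Dlg4 and Grin1) with only arrays of background above 80, the last 2 settings chosen after seeing the data. In that comparison 2 genes, Syn1 besides Dlg4, passed with median scaling (383 probes), array weights (429) and the selection and pool replicate block (127). Both passed on the authors' scale for every spot (224, chosen after seeing the data) and with the 50th percentile filter (169 of 2581). Leaving out 1 array at a time, 1 to 2 passed: Dlg4 ran from 1.30 to 1.88 and passed in 31 of 31 refits, and Syn1 ran from 1.27 to 1.53 and passed in 11.

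Between females and males in Air, 0 of the genes passed with median scaling, cyclic loess (Dlg4 -0.14, adjusted p = 0.714), the background class as a term and relative to adjacent spots. Of all 3872 probes, 851 passed there with median scaling, 104 with cyclic loess and 0 with the background class as a term. On the authors' scale Syn1 passed in place of Dlg4 (-0.82, adjusted p = 0.0297). Both passed, 2 in all, with the 50th percentile filter (608 of 2581 probes passed) and the selection and pool replicate block (612 of 3872). With 1 array left out, 1 to 2 genes passed (2 without male WSP Air 1-2 or male WSR Air 2-1). For the dependence of the line difference in Air on sex, 1 gene passed with array weights (Dlg4 2.07), and 0 to 1 with 1 array left out (1 without female WSP Air 1-1, female WSR Air 1-1 or female WSR Air 2-1). Of all 3872 probes, 241 passed there with array weights, and 9, 9 and 2 in these refits, in that order. For EtOH in female WSR, 1 passed on the authors' scale (Syn1 1.62, adjusted p = 0.031), and 0 to 1 with 1 array left out. Between the female lines after ethanol, 0 to 2 passed with 1 array left out, the 2 without female WSR EtOH 1-1. Grin1 was -2.89 there, with 163 of 3872 probes passing, and -0.45 without EtOH 1-2. With the selection replicate as a block alone, the Dlg4 difference between the female lines in Air stayed at 1.60 (adjusted p = 0.0047), and the block changed no other call. At 2 times the background, 2 arrays remained for Dlg4, 1 for Grin1 and 0 for Syn1.

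Leaving aside refits without 1 array, signs turned for 3 of the 21 differences given singly, none of them past the threshold before or after: for Dlg4 in male WSR with ethanol (0.058 with median scaling, 0.041 relative to adjacent spots), for Syn1 with ethanol over all groups (-0.074 relative to adjacent spots) and for Grin1 between the female lines after ethanol (0.047 relative to adjacent spots). Of the 18 given only as a range, 15 turned sign under some alternative, 10 of them relative to adjacent spots, and none passed the threshold when turned. The cause of these changes was not tested. The authors' value table gave no value for Dlg4 and Syn1 in comparisons with female WSR, where they lie below background.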
